A study of Mus musculus with 3 samples.

Results

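The cytosolic ribosomal protein genes encode the proteins of the large (Rpl) and small (Rps) subunit of the ribosome that translates messages in the cytosol. They were taken by name from the protein-coding mouse genes of mm10: symbols of Rpl or Rps followed by a digit, with Rplp0, Rplp1, Rplp2 and Rpsa, and without 10 Rps6k kinase genes and 2 genes with pseudogene names. The rule gave 89 of 21887 protein-coding genes on placed chromosomes, 54 with a large subunit name and 35 with a small subunit name. Of these, 12 were paralogs, retrogenes or other genes of like name, such as Rpl3l, Rpl36al, Rps27l and Rps19bp1, and the remaining 77 were 46 large and 31 small subunit genes.

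The study mapped the DNA-binding zinc finger protein ZFP410 by CUT&Tag, in which an antibody brings a transposase to chromatin so that the DNA around the bound protein is cut and tagged. The cells were brown preadipocytes, the precursors of heat-producing fat cells, sorted as lineage-negative cells positive for CD29, CD34 and Sca1 from male wild-type C57BL/6 mice and grown in culture. They were left untreated or induced for 3 days with brown adipocyte differentiation medium, and both were profiled with a ZFP410 antibody; control IgG was used on untreated cells. Each group held 1 library, so no difference between groups could be tested, and IgG of induced cells was not analysed here. How many mice were pooled is not given in the sources used here. Of the markers fixed for the cell type, 1 of 10 preadipocyte markers had an untreated gene-end summit, Col1a1, and 0 of 10 an induced one. Of 8 adipocyte markers 1 had a summit in each ZFP410 list, Cebpa, and of 8 blood and vessel cell markers none did in either; peaks do not measure expression, so the identity of the cells was not checked by this.

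Ribosomal protein genes are among the most actively transcribed genes of growing cells, and their products are made in matched amounts because the subunits are assembled from all of them. Their messages carry a pyrimidine stretch at the very start (the TOP sequence), through which mTOR signalling sets their translation. Many of the genes also hold small nucleolar RNAs in their introns. ZFP410 is known from other cells mainly for binding clustered copies of its motif near Chd4, a subunit of the NuRD chromatin remodeller.

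The deposited lists held 3256 untreated, 7475 induced and 480 IgG peaks. Each peak has a summit, the position of highest signal, and the number of fragments there was worked back from the listed fold and p-value. The lowest number in a listed peak was 3 untreated, 4 induced and 2 IgG fragments. Relative depth, read from the scale of the control, was 2.01 for induced over untreated and 7.02 for untreated over IgG. The genome-wide background was 0.110, 0.246 and 0.0231 fragments, a ratio of 2.24 between induced and untreated. A site of equal enrichment is therefore listed more readily in the induced library.

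The promoters of Rps21, Rps19, Rplp0 and Rps15a show where the signal sat on the DNA. Rps21 was the only gene of the set with a gene-end summit in both ZFP410 lists, Rps19 and Rplp0 had the most fragments of the small and large subunit genes whose only summit was induced and fell in the promoter window, and Rps15a was the only one whose promoter held the core of the ZFP410 motif searched for here. The sequences run from 250 bases before to 50 after the transcription start and are RefSeq sequences of GRCm38.p6, the assembly of mm10. In Rps21 (chr2:180257129-180257428, plus strand), Rps19 (chr7:24884342-24884641, plus strand) and Rplp0 (chr5:115559217-115559516, plus strand) capitals mark the 21 bases centred on the summit, untreated for Rps21 and induced for the others. In Rps15a (chr7:118116098-118116397, minus strand) capitals mark the motif core.
Rps21: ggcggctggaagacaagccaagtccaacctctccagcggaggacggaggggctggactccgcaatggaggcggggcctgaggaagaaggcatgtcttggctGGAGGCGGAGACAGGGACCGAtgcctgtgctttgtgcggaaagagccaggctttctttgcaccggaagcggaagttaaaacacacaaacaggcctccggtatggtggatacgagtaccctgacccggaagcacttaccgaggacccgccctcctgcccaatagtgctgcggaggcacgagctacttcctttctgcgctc
Rps19: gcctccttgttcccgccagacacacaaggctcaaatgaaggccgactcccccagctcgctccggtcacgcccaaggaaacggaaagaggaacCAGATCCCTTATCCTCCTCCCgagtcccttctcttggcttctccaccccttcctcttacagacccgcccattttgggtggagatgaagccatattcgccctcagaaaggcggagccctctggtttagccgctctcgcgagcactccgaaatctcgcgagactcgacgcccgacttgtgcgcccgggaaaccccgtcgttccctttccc
Rplp0: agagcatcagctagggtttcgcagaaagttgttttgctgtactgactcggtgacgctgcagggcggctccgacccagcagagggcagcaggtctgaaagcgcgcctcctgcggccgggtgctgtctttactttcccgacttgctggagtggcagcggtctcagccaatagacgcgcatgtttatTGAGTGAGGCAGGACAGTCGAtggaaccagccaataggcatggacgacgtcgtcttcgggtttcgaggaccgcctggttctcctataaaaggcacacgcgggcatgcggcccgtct
Rps15a: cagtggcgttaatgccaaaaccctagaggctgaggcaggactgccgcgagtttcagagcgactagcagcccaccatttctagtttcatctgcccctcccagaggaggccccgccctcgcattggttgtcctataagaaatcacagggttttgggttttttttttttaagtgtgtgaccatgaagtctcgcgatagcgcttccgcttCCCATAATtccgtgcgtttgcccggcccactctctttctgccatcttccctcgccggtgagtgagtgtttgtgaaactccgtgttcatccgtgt

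A gene was counted as occupied when a summit lay within 1 kb of either of its ends. In untreated cells 3 of the 89 ribosomal protein genes were occupied, Rps21, Rplp2 and Rps10, or 3.37% (95% Wilson interval 1.15 to 9.45), beside 3.73% of all coding genes. In induced cells 17 of 89 were occupied, or 19.1% (12.3 to 28.5), beside 8.43% of all coding genes. IgG had 0 of 89, which allows a share of up to 3.37%, beside 0.0366% of all coding genes. No ZFP410 peak at these genes overlapped an IgG peak. The untreated library was 7.02 times as deep as IgG, so at sites of few fragments a missing IgG peak says little. The induced library was deeper still, 2.01 times the untreated one. IgG was on untreated cells, so the induced peaks had no background control of their own condition here. The untreated share was thus near that of coding genes in general, and the interval of the induced share lay above the 8.43% of coding genes. These intervals cover counting error only, and the comparison with all coding genes is a description, since coding genes include many that are silent in these cells.

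The depth of the libraries bears on this contrast. When only induced peaks were kept whose fragments, divided by 2.24, reached the 3 fragments of the weakest untreated peak, 12 of the 89 genes remained, or 13.5%, beside 5.22% of all coding genes. This setting was chosen after the data had been seen. Among peaks with a −log10 q of 5 or more, 10 of 89 genes were occupied in the induced library, beside 4.42% of all coding genes, and only Rps21 in the untreated one, beside 1.00%. The share of ribosomal protein genes was above that of all coding genes in the induced library at each of these settings, and the difference between libraries was not tested.

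**Figure D1:**
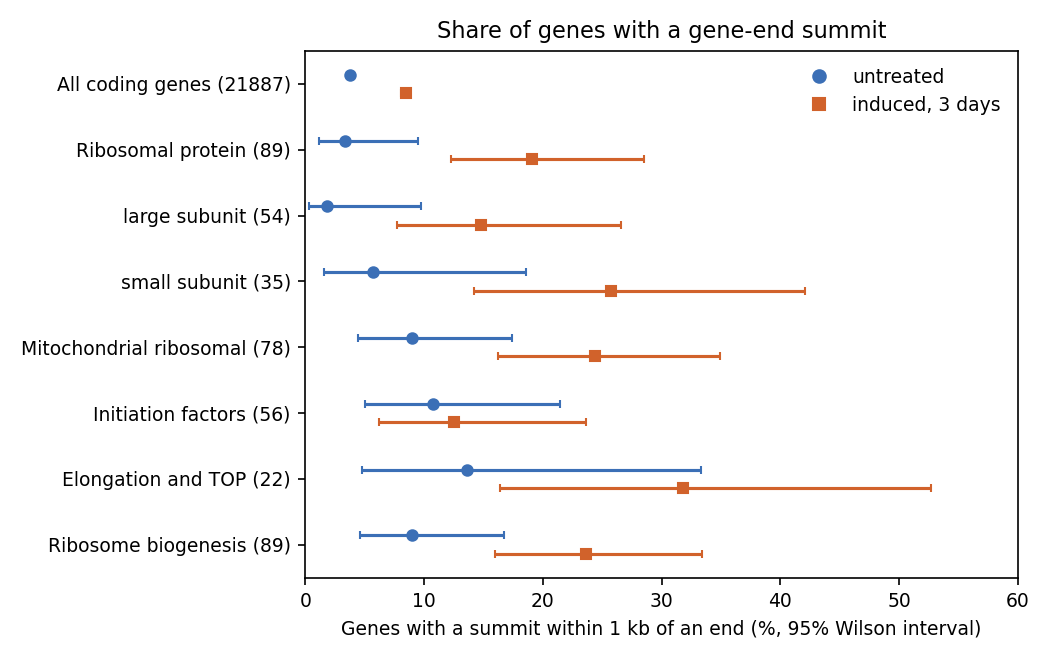
Percent of genes with a summit within 1 kb of either end, with 95% Wilson intervals, for all coding genes, the ribosomal protein genes, each subunit and 4 related gene lists in the untreated (circles) and induced (squares) library. Gene numbers are in brackets. Ribosomal protein genes lay at 3.37% untreated and 19.1% induced, and the large and small subunit intervals overlapped in both libraries.

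Genes of both subunits were among those occupied after induction. Of 54 large subunit genes 8 were occupied, or 14.8% (7.70 to 26.6), and of 35 small subunit genes 9, or 25.7% (14.2 to 42.1), beside 8.43% of all coding genes. The large subunit interval includes 8.43%, and the small subunit interval lies above it. In the untreated library the counts were 1 of 54, or 1.85% (0.328 to 9.77), and 2 of 35, or 5.71% (1.58 to 18.6), beside 3.73%, which both intervals include. Without peaks shared with a gene outside the set, the induced counts were 4 large and 8 small subunit genes. This setting was added for the subunits after the data had been seen, and no such count was made for all coding genes. The small subunit share was the higher in both libraries, but the intervals overlapped widely. Without the genes of like name the induced counts were 7 of 46 large and 9 of 31 small subunit genes, as the paralog Rpl36al was the only one of the 12 with a gene-end summit.

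Rps21, a small subunit gene on chromosome 2 (180257379 to 180258444), carried the strongest site in both libraries. The untreated peak (180257106 to 180257343) held 10 fragments at its summit, a fold of 9.91, and ranked 142 of 3256 by the authors' fold. The induced peak (180257065 to 180257585) held 19 fragments, a fold of 16.05, and ranked 265 of 7475. The peaks overlapped and their summits were 63 bp apart, 139 and 202 bp upstream of the first listed start. Over the genome background of each library the induced enrichment was 0.848 of the untreated one (exact binomial 95% interval 0.375 to 2.04), and 0.945 when scaled by depth, so a difference was not detectable at this depth. The nearest IgG summit lay 1300767 bp from the gene.

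Rplp2 and Rps10 had gene-end summits in the untreated list alone, both with few fragments. Rplp2 encodes an acidic protein of the ribosomal stalk, which recruits elongation factors. Its untreated peak on chromosome 7 (141447340 to 141447615) held 4 fragments 283 bp upstream of the start and also lay within 1 kb of an end of Pidd1. Equal enrichment would have given 8.96 induced fragments, and the nearest induced summit was 29681 bp away. Rps10, a small subunit gene mutated in some patients with Diamond-Blackfan anaemia, had 3 fragments 63 bp inside the gene, in a peak on chromosome 17 (27635113 to 27635249). It would have held 6.72 induced fragments, and the nearest induced summit was 204940 bp away. Both stood at the genome background and ranked 1480 and 2380 of the untreated list, among its weak peaks. The expected induced numbers rest on these 4 and 3 fragments and carry their counting error. Whether either site was lost on induction was not tested.

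Among small subunit genes listed in the induced library alone, Rps19 stood first. Rps19, the gene most often mutated in Diamond-Blackfan anaemia, had 17 fragments in a peak of 519 bp on chromosome 7 (24884031 to 24884549), a fold of 14.4 and rank 348. At equal enrichment the untreated library would have held 7.59 fragments there, and its nearest summit was 34259 bp away. Rpsa, which encodes a small subunit protein also known as the laminin receptor precursor, had 10 fragments 457 bp upstream of its start. The local background there was 1.96 times that of the genome, and 4.46 fragments would have been expected untreated. Rps16 and Rps27a had 8 fragments each, with 3.57 expected. The Rps16 summit lay 1 bp from the listed start, and Rps27a, which encodes a ubiquitin fused to a ribosomal protein, had its summit 79 bp inside an end of the gene, in a peak that also served Clhc1. Rps24, another gene of Diamond-Blackfan anaemia, had 7 fragments 44 bp upstream of its start, with 3.12 expected.

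The remaining small subunit sites were weaker or lay on a raised local background. Rps29 had 11 fragments, but the local background there was 6.60 times that of the genome and the fold only 4.57. Rps23, whose product lies near the decoding centre, had 6 fragments over 2.75 times the genome background, and Rps15a had 5 fragments at the genome background. At equal enrichment 2.68 and 2.23 fragments would have been expected untreated at Rps23 and Rps15a, fewer than the 3 that the lowest listed untreated summit held. At these genes a missing untreated peak was not informative at this depth.

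Among large subunit genes Rpl13a led. Rpl13a, whose product is also known for a role in silencing inflammatory messages away from the ribosome, had 14 fragments 300 bp upstream of its start on chromosome 7 (peak 45128843 to 45129111, fold 12.04, rank 551), with 6.25 expected untreated. Rplp0, which anchors the stalk proteins to the large subunit, had 10 fragments 56 bp upstream of its start on chromosome 5 (peak 115559272 to 115559491, fold 8.83, rank 1237), with 4.46 expected. The nearest untreated summits were 380489 and 93627 bp away, so neither site had an untreated peak nearby. Rpl41, which encodes a very short basic protein, had 9 fragments 28 bp upstream of its start, over a local background of 3.08 times that of the genome.

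Rpl36 was the only gene of the set with 2 gene-end peaks. On chromosome 17 these lay at 56609864 to 56610159 with 7 fragments and at 56609508 to 56609677 with 4, and both also served Micos13. Rpl36al, a paralog of Rpl36a, had 7 fragments with its summit 26 bp inside the gene, in a peak shared with an end of Mgat2. Rpl5, whose product forms a particle with 5S ribosomal RNA and binds MDM2, had 4 fragments 228 bp downstream of its nearest listed start. Rpl4, whose product lines part of the exit tunnel, and Rpl7 also had 4 fragments each, in peaks shared with Zwilch and Rdh10. The local background was 1.49 times that of the genome at Rpl4 and 1.40 times at Rpl7. At equal enrichment Rpl5, Rpl4 and Rpl7 would each have held 1.79 untreated fragments.

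Of the 17 peaks at the 16 genes listed after induction alone, 11 would have held at least 3 untreated fragments at equal enrichment and 6 fewer. Reaching 3 does not mean that a peak would have been listed, since these expected numbers carry counting error. Rps29 and Rpl41, among the 11, also stood on a local background 6.60 and 3.08 times that of the genome. Peaks that also lay within 1 kb of a gene outside the set were the only ones at 5 induced genes, Rpl4, Rpl7, Rpl36, Rpl36al and Rps27a. Without such peaks 12 induced and 2 untreated genes remained. Shared peaks were not set aside for all coding genes, so these counts have no coding gene share to stand beside. Which of the paired genes a shared peak belongs to was not tested.

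**Figure D2:**
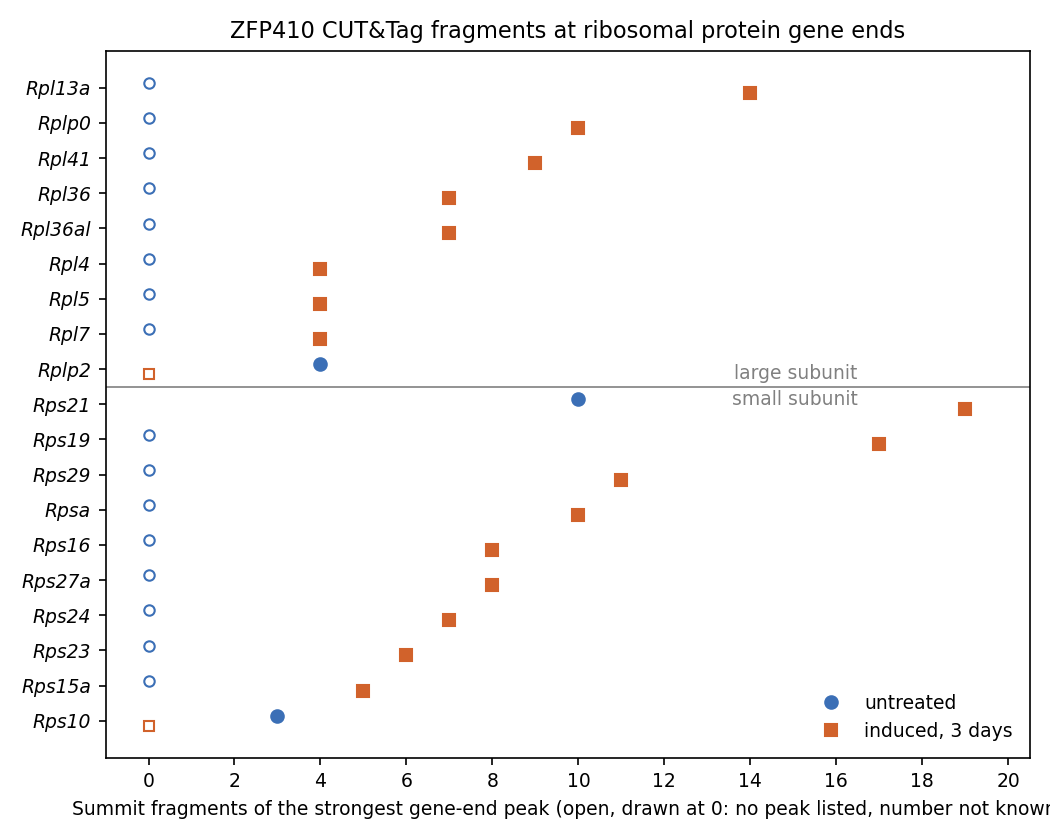
Summit fragments (x axis, number) of the strongest gene-end peak at each of the 19 occupied genes, in the untreated (circles) and induced (squares) library, with large subunit genes above the line and small subunit genes below it. Open symbols mark genes with no listed peak, where the number is not known. Rps21 alone has filled symbols for both libraries, at 10 and 19, with a depth ratio of 2.01 between the libraries.

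Compared with gene-end peaks in general, those of ribosomal protein genes were of usual size. The 18 induced peaks held 4 to 19 fragments with a median of 7.5, beside a median of 7 and a highest value of 104 over all 1590 gene-end peaks. Their median width was 241 bp beside 281.5 bp, and 66.7% stood at the genome background beside 68.6%. The 3 untreated peaks held 3, 4 and 10 fragments, beside a median of 5 over 726 peaks. The strongest ZFP410 sites of either list were not at these genes: the best rank was 142 untreated and 265 induced.

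Where a start was listed, the induced peaks sat nearer to it than to the other end of the gene. A listed start was available for 69 of the 89 genes, and for 13 of the 18 induced peaks. In all 13 the nearer gene end was the start. The summits lay from 457 bp upstream to 228 bp downstream of the nearest listed start, 9 of them upstream, with a median position of −56 bp. Of the 13 peaks 6 covered the start itself. No such counts were made over the gene-end peaks of all coding genes. Of all coding genes, 8.89% of 17492 had an induced summit by listed start and 8.43% of 21887 by either end. A position at starts was therefore not shown to be particular to this set. Rpl7, Rps27a, Rps29 and Rpl36 had no listed start.

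**Figure D3:**
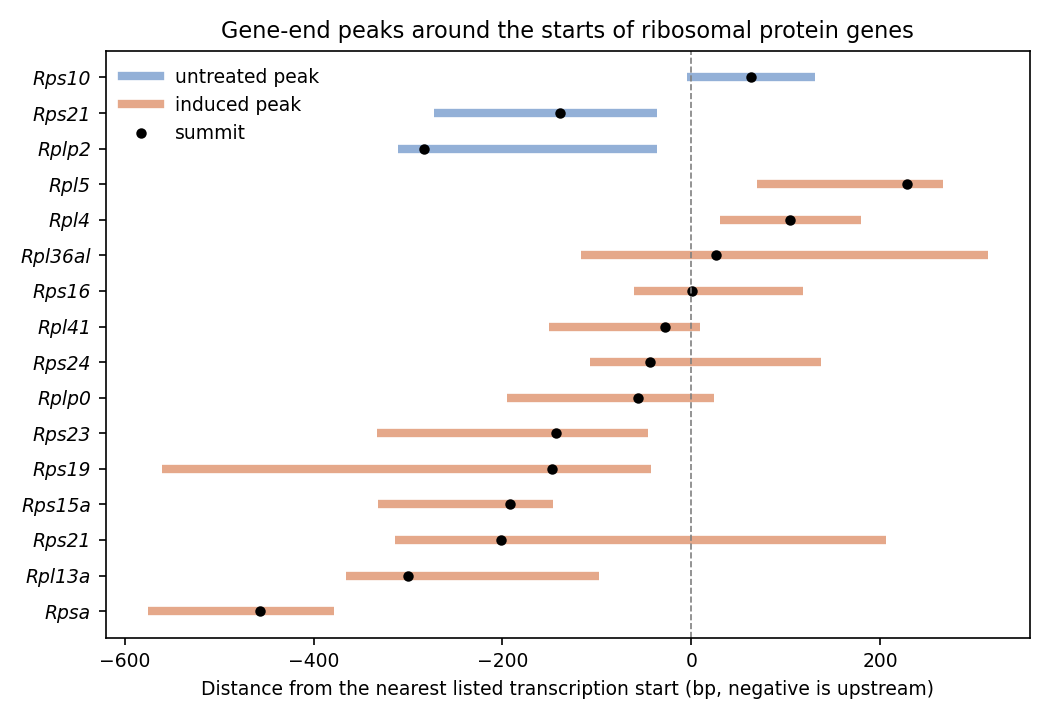
Extent of each gene-end peak (bar) and its summit (dot) relative to the nearest listed transcription start of the gene, in bp, with negative values upstream, for the 3 untreated and 13 induced peaks at genes with a listed start. Induced summits lie between −457 bp at Rpsa and 228 bp at Rpl5, and the 2 Rps21 peaks overlap.

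Counting by listed starts in place of gene ends added sites that the gene-end window missed, since the first listed start lay 762 to 2604 bp inside the gene end at Rpl38, Rps27l, Rps2 and Rpl18. Within 1 kb of a listed start there were summits at 4 of 69 genes in the untreated library, or 5.80%, beside 3.94% of coding genes, and at 17 of 69 in the induced one, or 24.6%, beside 8.89%. Rps2, which encodes a protein near the entry of the messenger RNA channel, gained a summit in both lists. Its untreated peak on chromosome 17 (24719816 to 24719982) held 5 fragments and its induced peak (24719725 to 24720212) 7, with summits 3 bp apart, at −116 and −113 bp from the start. The ratio of enrichment was 0.625 (0.171 to 2.50). By starts, then, 2 of the genes, Rps2 and Rps21, were occupied in both libraries.

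The other genes gained by this count were occupied in the induced library alone. Rpl38, a large subunit gene known from mice with skeletal patterning defects, had 10 fragments 556 bp downstream of its listed start and 1318 bp from its gene end. Rps27l, a paralog of Rps27, had 9 fragments 140 bp downstream of a start and 1602 bp from its gene end. Rpl18 had 4 fragments 39 bp downstream of a start, in a peak that also lay within 1 kb of an end of Sphk2. By gene end, the occupied genes farthest from an induced summit were Rpl7 at 464 bp and Rpsa at 457 bp. The nearest outside the window were Rpl38 at 1318 bp, Rps27l at 1602 bp and Rps2 at 1829 bp. No gene of the set had its nearest induced summit between 464 and 1318 bp from an end, so a window of 500 bp gave the same 17 and 3 genes.

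Farther out, some summits near these genes belonged to the ends of other genes. Rps19bp1, which encodes a binding partner of Rps19 and no ribosomal protein, had summits 4929 and 4935 bp away in the untreated and induced list, both at an end of Atf4, with 4 and 10 fragments. Rpl23a had its nearest induced summit 3306 bp away, at ends of Tlcd1 and Nek8. Within 10 kb of an end 32.6% of ribosomal protein genes had an induced summit, beside 16.8% of coding genes, and 11.2% an untreated one, beside 8.53%. The median distance to the nearest summit was 41.2 kb induced and 123 kb untreated, beside 84.8 and 194 kb for all coding genes. The farthest was Rpl39 in the untreated list, 5944620 bp from any summit, and Rps4x in the induced list, at 1497447 bp.

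**Figure D4:**
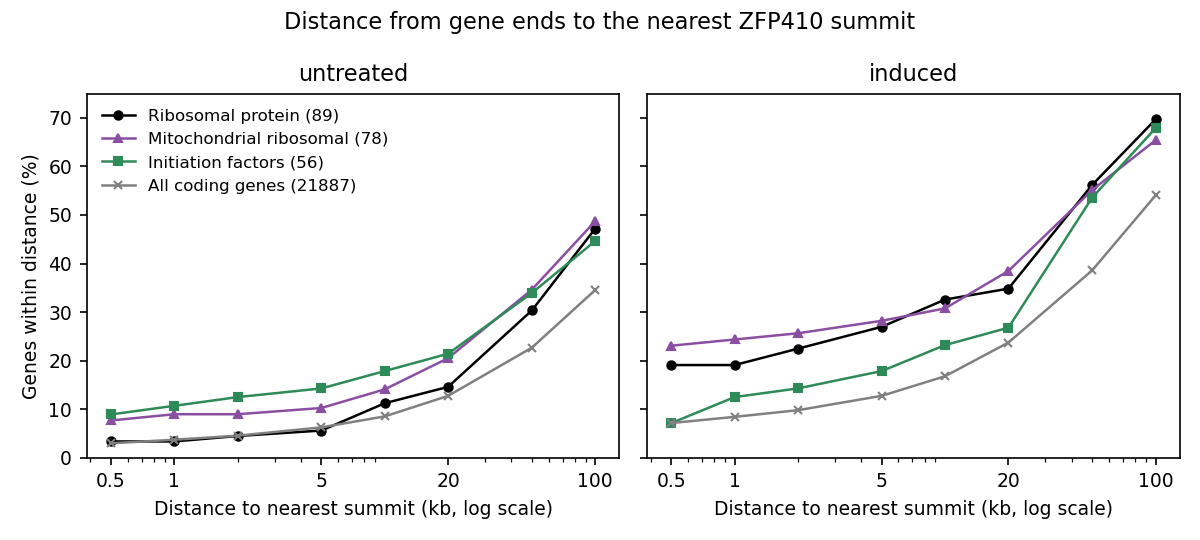
Cumulative percent of genes with a summit within a given distance of either gene end (x axis, kb, log scale) in the untreated (left) and induced (right) library, for the ribosomal protein, mitochondrial ribosomal protein, initiation factor and all coding genes. In the untreated panel ribosomal protein genes follow all coding genes up to 5 kb, at 5.62% and 6.27%, and in the induced panel they lie above them at each distance plotted.

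By gene end, 1 of the 3 untreated genes (33.3%) and of the 17 induced ones (5.88%) was occupied in both lists, beside 64.5% of the 816 untreated and 28.5% of the 1846 induced coding genes. By listed start 2 genes were, 50% of 4 untreated and 11.8% of 17 induced genes, beside 66.2% of 689 and 29.3% of 1555 coding genes. For the mitochondrial ribosomal protein genes, whose products build the separate ribosome of mitochondria, 6 genes were shared, 85.7% of 7 untreated and 31.6% of 19 induced genes. For genes of ribosome biogenesis and RNA polymerase I 5 were shared, 62.5% of 8 and 23.8% of 21. With 3 or 4 untreated genes the share among ribosomal protein genes is imprecise, and the difference between the lists of genes was not tested.

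Other gene lists of the translation machinery had induced shares from 12.5% to 31.8%, beside 8.43% of all coding genes, and untreated shares from 8.97% to 13.6%, beside 3.73%. Mitochondrial ribosomal protein genes stood at 7 of 78 untreated and 19 of 78 induced, or 8.97% (4.41 to 17.4) and 24.4% (16.2 to 34.9). They were led by Mrpl45 with 26 and 55 fragments, more than at any cytosolic ribosomal protein gene. Ribosome biogenesis genes stood at 8 and 21 of 89, or 8.99% (4.62 to 16.7) and 23.6% (16.0 to 33.4), with Rrp9, Utp15, Utp18 and Polr1b at 25, 18, 18 and 15 induced fragments. Elongation and other TOP message genes stood at 3 and 7 of 22, or 13.6% (4.75 to 33.3) and 31.8% (16.4 to 52.7), among them Tpt1, with 11 untreated and 15 induced fragments, Hnrnpa1 with 12 induced, and Eef2 with 4 and 7. Cytosolic initiation factor genes were taken by symbol, Eif followed by a digit, and genes of like name were not set apart. They stood at 6 of 56 untreated and 7 of 56 induced, or 10.7% (5.00 to 21.5) and 12.5% (6.19 to 23.6), an induced interval that includes 8.43%. Among them were Eif2ak3, the gene of an eIF2α kinase, at 5 and 20 fragments, Eif4e at 13 induced and Eif2s1 at 6 and 11. Eif5a and Eif5b had 17 and 8 induced fragments, and both are also in the list of elongation and other TOP message genes. The intervals of these lists overlapped that of the ribosomal protein genes in each library, and no test was made between lists.

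Promoter sequence was compared for the 69 genes with a listed start, 13 of them occupied in the induced list by gene end and 54 without a gene-end summit in either list. These 54 include Rpl18, Rpl38, Rps2 and Rps27l, which had a summit near a listed start, so the 50 genes with neither are given beside them. The grouping by listed start was added after the data had been seen. Words were searched on both strands in the 300 bases of each listed promoter. The core of the ZFP410 motif, CCCATAAT, was present in 0.532% of 17492 coding gene promoters and in 1 of the 69, Rps15a. It lay at −44 to −37 there, while the induced peak of 5 fragments covered −332 to −147, so the peak did not reach it. The same core was found in promoters of Chd4. It was in no printed promoter but Rps15a, and not in those of the other 12 occupied genes; this says only that these letters are not in these windows.

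Several other promoter words were more frequent in the set than among all promoters, at genes with and without a gene-end summit. The ETS word CCGGAAG was present in 37.7% of the ribosomal protein promoters beside 12.9% of all promoters. It was in 3 of 13 promoters with an induced summit, Rps21, Rpsa and Rpl41, in all 3 with an untreated summit, and in 21 of 54 with no gene-end summit. The 23.1% of those 13 stood beside 23.6% of the 1520 coding gene promoters with an induced gene-end summit. Grouped by listed start it was in 6 of 17 induced promoters, or 35.3%, beside 24.2% of 1555 coding gene promoters, in all 4 untreated ones and in 18 of 50 with no summit by start or end. The palindrome-forming word TCTCGCGA was in 15.9% beside 1.59%. It was in 2 of 13 with an induced summit, Rps19 and Rps15a, beside 4.14% of coding gene promoters with an induced gene-end summit. It was in 9 of 54 with no gene-end summit. By listed start it was in 2 of 17 induced promoters, beside 4.05% of 1555, and in 9 of the 50. The pyrimidine word CTTTCC, part of the TOP sequence when it lies at the start, was in 52.2% beside 28.8%. It was in 8 of 13, beside 30.3% of coding gene promoters with an induced gene-end summit, and in 27 of 54. By listed start CTTTCC was in 12 of 17 induced promoters, or 70.6%, beside 31.6% of 1555 coding gene promoters, and in 23 of the 50. These differences were not tested. The YY1 word AAGATGGC was in 8.70% beside 3.57%, ACTACANNT of ZFP143 in 5.80% beside 5.40%, and TATAAA in 11.6% beside 14.8%. CTTTCC and CCGGAAG can overlap on the same strand, since the first ends and the second begins with CC. Median GC content was 59.0% in the 13 promoters with an induced summit and 56.8% in the 54 with no gene-end summit, beside 56.3% of all coding gene promoters and 61.7% of those with an induced gene-end summit.

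Length and the small nucleolar RNA genes held inside were also described. The median length was 3183 bp for the 17 induced genes and 3202 bp for the other 72. Counted by gene end or listed start it was 4153 bp for 21 induced genes and 3102 bp for the 66 with no summit in either list, beside 17169 bp for all coding genes. A small nucleolar RNA gene lay inside 5 of the 17, Rpl13a, Rpl4, Rpl5, Rps16 and Rpsa, or 29.4%, and inside 24 of the 70 genes with no gene-end summit in either list, or 34.3%. By gene end or listed start the counts were 6 of 21 and 23 of 66. No test was made of these lengths or shares.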

How the data were processed

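CUT&Tag libraries (ZFP410 antibody on untreated and induced cells, IgG on untreated cells) went through Bowtie2 2.2.6 and Picard, and peaks were called by MACS2 2.1.1, all named in the submitters' processing notes with the build mm10. The authors deposited 1 peak list per library. For each peak these deposited lists give a score, a fold over the local background, the −log10 of p and of q, and a summit. A q threshold of 0.1 stands in the names of the peaks. The handling of duplicates and the caller's control were not given in the sources used here.

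Fold is (fragments + 1) over (local background + 1) and p is a Poisson tail, so each pair was solved for a whole number of fragments. This held within 0.001 in −log10 p for 3255, 7473 and 480 peaks (untreated, induced, IgG), and every peak named here came out whole. On simulated data it recovered 100%, 99.9% and 100% of 982, 980 and 893 planted numbers. Steps in the local background, each 1 control fragment, gave relative depth on the assumption that the lists share a control. Enrichment divides summit fragments by the library's own genome background.

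Gene positions came from the RefSeq table of GRCm38.p6 and starts from its promoter table, which had 69 of the 89 genes. Summits (start plus offset, 1-based) were set against both gene ends. Intervals are 95% Wilson or exact binomial and cover counting error only. Named genes are all those with a gene-end summit, the 5 next nearest to an induced summit, and up to 4 of each comparison list, by fold. The others, such as Rps19bp1, Rpl39 and Rps4x, were chosen after their values were seen. The gene set and the lists were chosen with earlier results of these data known. Of the list names 3 matched no coding gene. Alternatives were other windows, stricter q or fold, peak overlap, starts alone, unshared peaks and depth scaling. Python 3.11.15, scipy 1.17.1 and pandas 2.3.3 were used. Some items of the set are not reported here.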

Additional observations from a re-analysis of the deposited data

How the results depend on the processing

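No paired analysis was possible because each group held 1 library, and leaving out a library leaves none in its group. At a −log10 q of at least 5 and at a fold of at least 5 the induced count fell from 17 to 10 and 11 genes. The large subunit count fell from 8 to 4 and 5. These 10 and 11 genes were 11.2% and 12.4% of the set, beside 4.42% and 5.87% of all coding genes. The untreated count fell from 3 to 1 at both (large subunit 0, small subunit 1). This was 1.12% of the set, beside 1.00% and 1.94% of all coding genes. A window of 5 kb gave 5 untreated genes (small subunit 4, from 2), or 5.62%, beside 6.27% of all coding genes. Induced peaks matched to the lowest untreated number left 5 large subunit genes, and unshared peaks left 4 induced and 0 untreated large subunit genes. Matching, and the subunit counts by 5 kb, starts alone and unshared peaks, were added with these data already examined. All other counts of the set and of each subunit stayed within 1.5 times under the settings run, and IgG had 0 in all settings run. The induced count of the whole set exceeded the untreated one in each setting run on both lists. The count of all coding genes was also higher in the deeper induced library, 1846 beside 816 at the main setting. At a fold of at least 5 it was 1284 beside 424. The Rps21 ratio stayed below 1 under both scalings, with intervals that include 1. Depth limits the untreated list, in which sites of under 3 fragments are not listed.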

Other observations

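Pseudogenes named for ribosomal proteins, which are copies of the messages set elsewhere in the genome, had no summit within 1 kb of an end. The count was 0 of 324 in the untreated, induced and IgG list, which allows a share of up to 0.926%, beside 0.297% and 0.527% of 10429 pseudogenes of all kinds in the untreated and induced list. Pseudogenes without a ribosomal protein name were not included in the 324.

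Of the 74 ribosomal protein genes longer than the end windows together, 1 had an untreated summit more than 1 kb from both ends, at Rps2, or 1.35%, beside 4.94% of 19304 coding genes of such length. In the induced list 4 had one, at Rpl18, Rps27l, Rpl38 and Rps2, or 5.41%, beside 9.31%. The coding genes are longer than those of the set, and gene length was not matched. Each of these lay within 1 kb of a listed start, as given above.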
